A study of Rattus norvegicus with 6 samples.

Results

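The genes described here are the Toll-like receptors, the NOD-like receptors of the Nlrp and Nod families, and the adaptors, kinases and transcription factors through which they act on NF-κB. They were chosen by symbol, as those of the Tlr, Nlrp, Irak and Nfkb families together with Nod1, Nod2, Ticam1, Ticam2, Myd88, Tirap, Cd14, Ly96, Lbp, Rel, Rela, Relb, Pycard, Casp1 and Ripk2, wherever a probe set carried a single gene symbol. This gave 46 of the 18166 genes measured. Ticam1 was not analysed here. The tissue was epididymis of Sprague-Dawley rats aged 48 days, the duct in which sperm mature, which had been sorted magnetically so that RNA of a basal fraction could be hybridised to 3 Affymetrix RaGene 2.0 ST arrays and RNA of a non-basal fraction to another 3. Both fractions came from rats of the same strain and age, for which no treatment is named, and the design text counts 3 rats without tying an array to an animal or saying which surface molecule was used.

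Toll-like receptors bind microbial lipids, proteins and nucleic acids at the cell surface or in endosomes, and most of them signal through the adaptor MyD88 and the IRAK kinases. NOD-like receptors sense microbial fragments and damage in the cytosol. NOD1 and NOD2 pass the signal to the kinase RIPK2, and several NLRP proteins build inflammasomes with the adaptor ASC (gene Pycard) and caspase 1. Most of these routes release the NF-κB dimers from their IκB inhibitors, and the dimers then induce cytokines and, in a feedback loop, IκB genes. In the epididymis, ascending bacteria can cause epididymitis, and the epithelium and the resident macrophages both carry such receptors.

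All values are log2 expression values made by RMA, which ran from 1.46 to 14.33 with array medians of 6.63 to 6.703. Values are compared between arrays for 1 gene at a time, because probe sets differ in brightness. Across probe sets the arrays correlated at 0.982 to 0.988 within the basal fraction, 0.985 to 0.991 within the non-basal fraction and 0.956 to 0.974 between them. The labels of the fractions were set against markers of the cell types that each could hold. All 10 measured basal epithelial markers were higher in the basal fraction, among them the transcription factor Tp63 (10.19 ± 0.0999 in basal and 7.09 ± 0.545 in non-basal arrays; SD, n = 3 each) and the keratin Krt14 (12.38 ± 0.156 in basal and 8.98 ± 1.14 in non-basal arrays). All 10 fibroblast markers were lower in the basal fraction, as were 9 of 9 smooth muscle, 8 of 9 endothelial and 8 of 16 lymphocyte markers, and so were Col1a1, a collagen chain, and Tie1, an endothelial receptor. Of 13 principal cell markers 1 was higher (Etv4, 1.04), 1 was lower (Spag11a, -1.08; both named after their values were seen) and 11 were not called, among them Adam7, a membrane protein gene (-0.64, adjusted p = 0.204). Macrophage and monocyte markers numbered 21, of which 3 were lower, namely Ctss, Laptm5 and Ptprc. The other 18 were not called, among them Csf1r, Cd68, Adgre1 and Cd163. The log2 of the summed level of the 21 was 13.43 to 13.95 in basal arrays, against 13.67 in non-basal replicate 1 and 14.60 to 14.70 in the other non-basal arrays. None of the 12 neutrophil and mast cell markers and none of the 10 narrow and clear cell markers was called by limma, with 4 and 0 of them at an unadjusted p under 0.05. With 1 array left out, 4 fibroblast markers were lower without basal replicate 2, non-basal replicate 2 or non-basal replicate 3, lymphocyte markers numbered 5 to 12, principal cell markers 0 to 7, the most without basal replicate 3, and macrophage markers 0 to 14, the most without non-basal replicate 1 and the fewest without basal replicate 1, non-basal replicate 2 or non-basal replicate 3. In fractions of mixed cells, fewer cells of a type and less RNA per cell cannot be told apart.

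Each gene was tested with limma across all 18166 genes, as basal minus non-basal on the log2 scale, and was called higher or lower at a two-sided Benjamini-Hochberg adjusted p under 0.05. Of the 46 genes 7 were called, which is 15.2%, beside 14.9% of all genes. Lower in the basal fraction were 5 genes, namely Tlr2, Tlr6, Lbp, Myd88 and Ripk2, and they make up 10.9% of the 46 where 7.14% of all genes were lower. Pycard and Irak2 were higher, which is 4.35% where 7.71% of all genes were higher. The 3 basal values lay wholly above or wholly below the 3 non-basal values for 19 of the 46 genes (41.3%), beside 32.9% of all genes. The median difference of the 46 was -0.04, beside 0.00342 for all genes. At an unadjusted p under 0.05 stood 14 of the 46, or 30.4%, beside 30.0% of all genes. The shares called and the share at an unadjusted p under 0.05 were therefore close to the background, and what follows describes single genes.

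**Figure D1:**
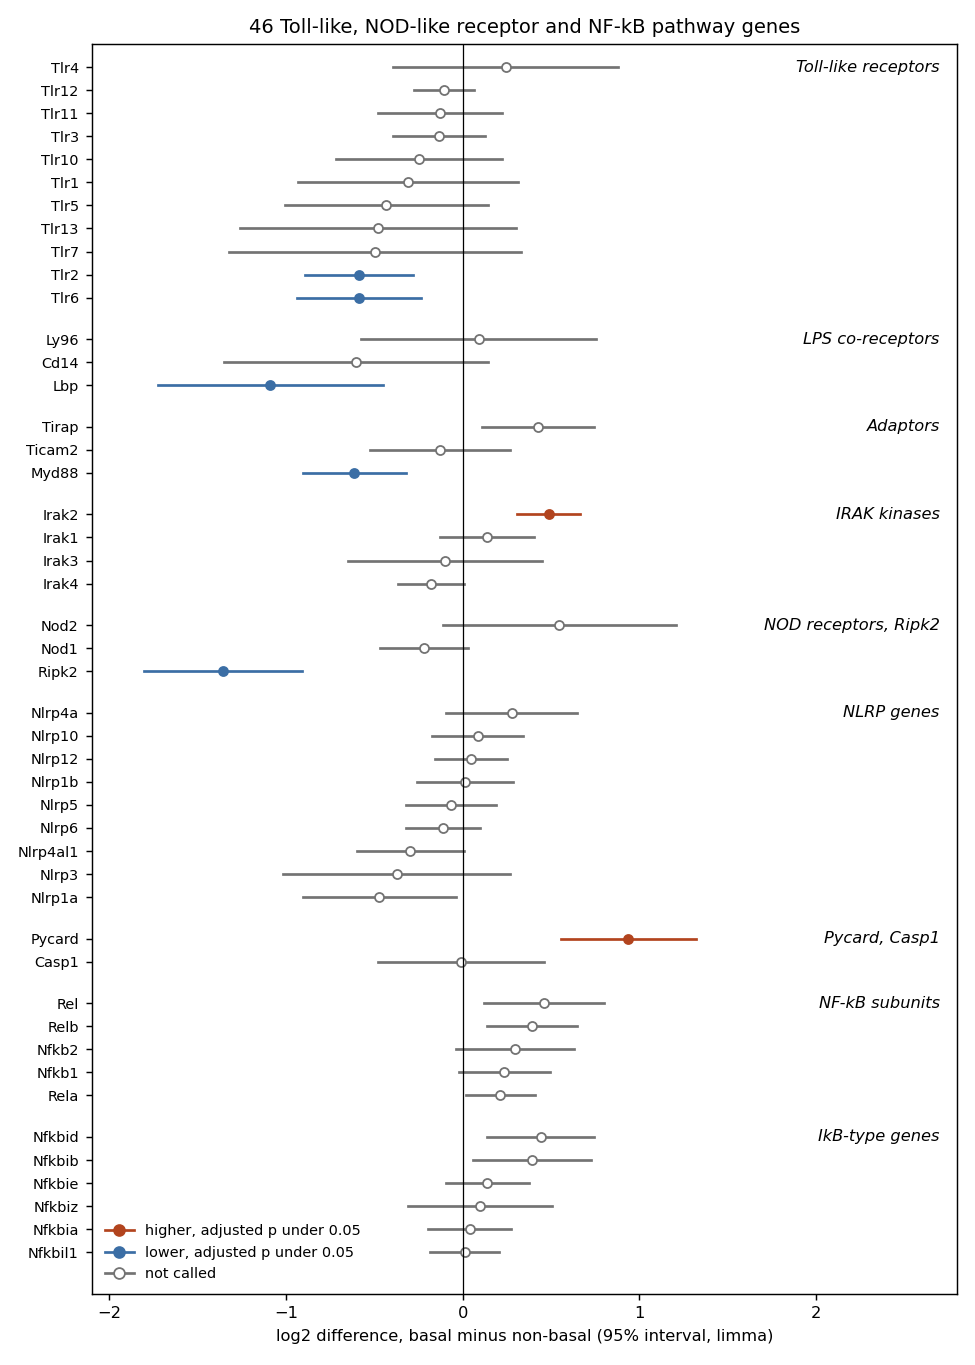
Log2 difference, basal minus non-basal, of each of the 46 genes (points) with its 95% interval from limma (lines), grouped by role, with called genes in colour. Of the 11 Toll-like receptor genes 10 lie left of 0, and all 5 NF-κB subunit genes lie right of 0 without being called.

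Among the 11 Toll-like receptor genes 2 were lower in the basal fraction, 0 were higher and 9 were not called, with a median difference of -0.31. Tlr2, whose product pairs with TLR1 or TLR6 to bind bacterial lipoproteins, had values of 6.91, 7.26 and 7.21 in basal arrays, against 7.88, 7.67 and 7.60 in non-basal arrays. Every basal array lay below every non-basal array, and the difference was -0.59 ± 0.126 (SE; limma adjusted p = 0.0298). Tlr6, the partner for diacylated lipopeptides, had 5.82, 5.72 and 6.19 in basal arrays, against 6.34, 6.59 and 6.56 in non-basal arrays. Here too the fractions were apart, basal replicate 3 coming closest to the non-basal values, with a difference of -0.59 ± 0.144 (adjusted p = 0.0453). Tlr6 is a dim gene, with means of 5.91 in basal and 6.50 in non-basal arrays, under the array medians. Omitting each array in turn kept both calls once, without basal replicate 3. In the other fits the adjusted p reached 0.0897 for Tlr2, without non-basal replicate 2, and 0.158 for Tlr6, without non-basal replicate 3. Tlr6, Tlr1 and Tlr10 stand next to each other in the rat genome (GRCr8 annotation) and resemble each other in sequence, so the assignment of signal to Tlr6 is uncertain. The differences of the other 2 were -0.31 for Tlr1 and -0.25 for Tlr10, and neither was called.

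Tlr4, the receptor for bacterial lipopolysaccharide, was the only Toll-like receptor gene with a positive difference, at 0.24 (95% interval -0.40 to 0.88, adjusted p = 0.574). It had 7.30, 7.43 and 6.84 in basal arrays, against 6.43, 7.25 and 7.16 in non-basal arrays. The fractions overlapped, and without non-basal replicate 1, its lowest array, the difference was -0.01. Tlr5, the flagellin receptor, had 7.89, 7.94 and 8.05 in basal arrays, against 8.94, 8.10 and 8.13 in non-basal arrays. All basal values lay below the non-basal ones, but only non-basal replicate 1 was far from them, and the difference of -0.43 had an interval of -1.01 to 0.14 (adjusted p = 0.275). Tlr3, which binds double-stranded RNA in endosomes, had 9.81, 9.90 and 10.04 in basal arrays, against 10.23, 9.97 and 9.96 in non-basal arrays. Its fractions overlapped, with an interval of -0.39 to 0.13 around -0.13 (adjusted p = 0.445). The remaining genes, Tlr7, Tlr11, Tlr12 and Tlr13, had differences between -0.50 and -0.11, none of them called.

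Of the 3 genes that serve lipopolysaccharide recognition, 1 was lower and 2 were not called. Lbp, the secreted protein that extracts lipopolysaccharide from bacterial membranes, had 8.39, 9.10 and 8.20 in basal arrays, against 9.92, 9.64 and 9.40 in non-basal arrays. The fractions did not overlap, and Lbp was lower in the basal fraction by 2.13-fold (-1.09 ± 0.260, adjusted p = 0.0422). The call held only without basal replicate 2, the highest basal array, and the adjusted p reached 0.15 without basal replicate 1. Cd14, which hands lipopolysaccharide to the receptor and is abundant on monocytes, had 9.67, 10.24 and 9.75 in basal arrays, against 9.85, 10.81 and 10.81 in non-basal arrays. Non-basal replicate 1 lay among the basal values, and the difference of -0.60 was not called (adjusted p = 0.245). Ly96, which encodes MD-2, the part of the TLR4 complex that holds the lipid, had 6.96, 7.08 and 6.06 in basal arrays, against 6.69, 6.65 and 6.49 in non-basal arrays. Basal replicate 3 was its lowest array and basal replicates 1 and 2 its highest. Over all arrays Ly96 differed by 0.09 (adjusted p = 0.849), and without basal replicate 3 by 0.41 (adjusted p = 0.0396).

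Adaptors and kinases next to the receptors went in both directions. Myd88, the adaptor of nearly all Toll-like receptors and of the interleukin 1 receptor family, had 9.70, 9.51 and 9.27 in basal arrays, against 10.17, 10.09 and 10.07 in non-basal arrays. The non-basal values were close together and above every basal value, and basal arrays were lower by 1.53-fold (-0.61 ± 0.119, adjusted p = 0.0222). Of 6 fits that each omit an array, 2 kept the call, those lacking basal replicate 1 or basal replicate 3, and the adjusted p reached 0.0889 without basal replicate 2. Irak2, a kinase that MyD88 recruits and that sustains the signal to TRAF6, had 9.93, 9.89 and 9.97 in basal arrays, against 9.41, 9.56 and 9.37 in non-basal arrays. All basal values were higher than all non-basal values, by 0.49 ± 0.0733 (adjusted p = 0.00965), and the call held in 6 of 6 fits with an array left out, with adjusted p of 0.0202 to 0.0482. Tirap, the bridge between MyD88 and the receptors TLR2 and TLR4, had 7.69, 7.73 and 7.82 in basal arrays, against 7.46, 7.04 and 7.46 in non-basal arrays. The values of the fractions were apart, yet the difference of 0.42 did not pass (unadjusted p = 0.0166, adjusted p = 0.0851). Ticam2, the bridge from TLR4 to the interferon branch, differed by -0.13. Differences of the other kinases were 0.14 for Irak1, -0.10 for Irak3, an inhibitor of the complex, and -0.18 for Irak4, which starts the cascade, with 0 of the 3 called.

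**Figure D2:**
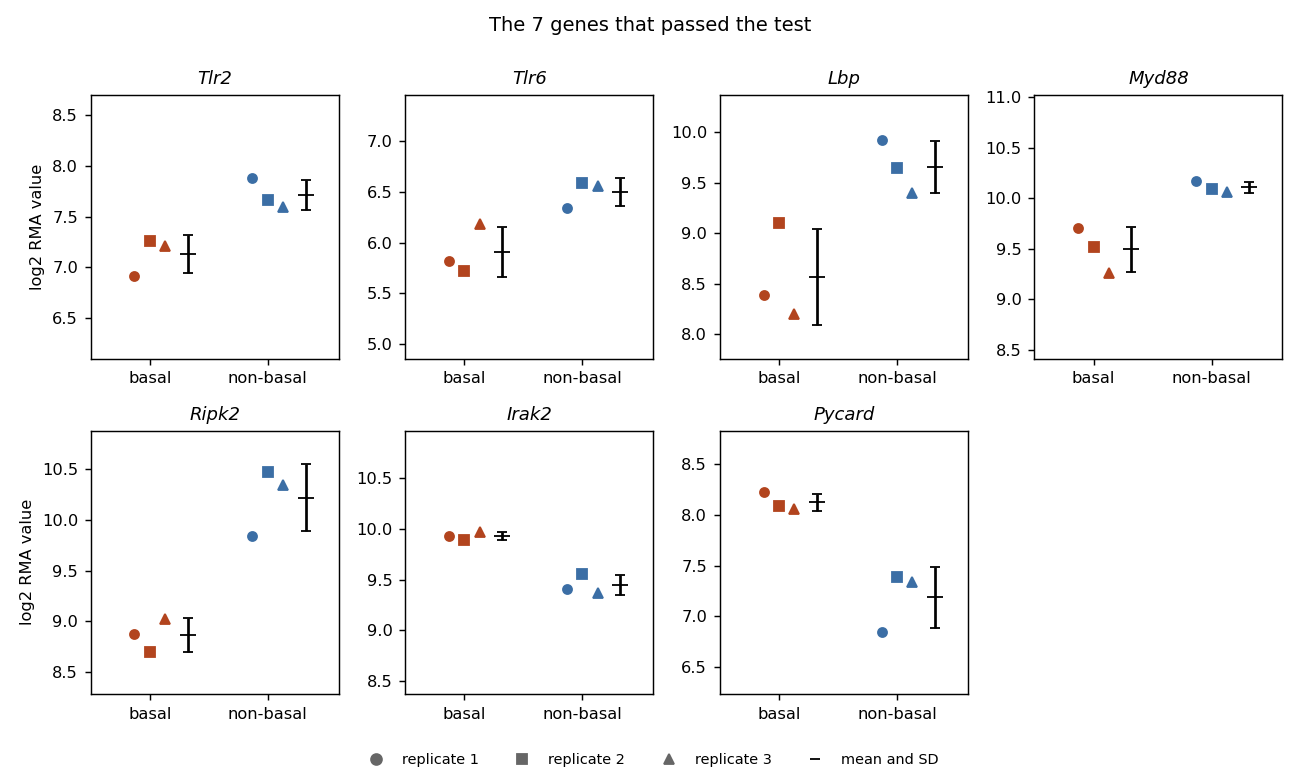
Log2 RMA values of the 7 called genes on each array, basal left and non-basal right, with the mean and SD of each fraction (n = 3); every panel spans the same number of log2 units. Ripk2 shows the widest gap, with basal values up to 9.02 and non-basal values from 9.84.

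The largest absolute difference among the 46 genes belonged to Ripk2, the kinase that carries signals from NOD1 and NOD2 to NF-κB. It had 8.88, 8.69 and 9.02 in basal arrays, against 9.84, 10.47 and 10.35 in non-basal arrays. No value of the basal fraction came near the non-basal fraction, and Ripk2 was 2.56-fold lower (-1.36 ± 0.182, adjusted p = 0.00687). The call held in 6 of 6 fits with an array left out, with adjusted p of 0.00362 to 0.0468. Nod1, a sensor of peptidoglycan fragments in epithelial cells, had 8.19, 8.04 and 8.12 in basal arrays, against 8.21, 8.52 and 8.27 in non-basal arrays. The fractions were narrowly apart, and the difference of -0.22 was not called (adjusted p = 0.212). For Nod2, the muramyl dipeptide sensor, the difference was 0.55 with an interval of -0.11 to 1.21 (adjusted p = 0.236), and basal replicate 2 stood above the rest at 8.15.

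Of the 9 Nlrp genes 0 were called by limma, and 1, Nlrp1a, stood at an unadjusted p under 0.05. Nlrp3, the sensor of the best-known inflammasome, had 6.04, 6.31 and 6.31 in basal arrays, against 5.999, 6.98 and 6.81 in non-basal arrays. Its value in non-basal replicate 1 was below all basal ones, and the difference was -0.37 (adjusted p = 0.393). Nlrp1a, a rodent relative of human NLRP1, differed by -0.47 (unadjusted p = 0.0371, adjusted p = 0.138) and its neighbour Nlrp1b by 0.01. These 2 genes are close copies, so signal may be divided between them. The other genes, Nlrp4a, Nlrp4al1, Nlrp5, Nlrp6, Nlrp10 and Nlrp12, differed by -0.30 to 0.28, and Nlrp4a stayed under 5 on average in both fractions. Nlrp5 is known in the mouse as a gene of the oocyte. Nlrp6 held the same deposited value, 5.20, on 4 of the 6 arrays, and 35.3% of all genes have a value that recurs on another array.

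The inflammasome adaptor and its protease parted. Pycard had 8.22, 8.09 and 8.06 in basal arrays, against 6.84, 7.39 and 7.34 in non-basal arrays. The fractions were far apart compared with their spread, and Pycard was 1.91-fold higher in the basal fraction (0.94 ± 0.157, adjusted p = 0.0136). When arrays were omitted singly the call was kept 3 times of 6 and was lost without basal replicate 1, where the adjusted p was 0.0678, basal replicate 2 or non-basal replicate 3. Casp1, which cleaves the precursors of interleukin 1β and interleukin 18, had 8.47, 8.61 and 8.27 in basal arrays, against 8.10, 8.80 and 8.47 in non-basal arrays. Its fractions overlapped throughout, with a difference of -0.01 and an interval of -0.48 to 0.46 (adjusted p = 0.981). The sign of the Casp1 difference turned when basal replicate 3 (0.08) or non-basal replicate 2 (0.16) was omitted.

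None of the 5 NF-κB subunit genes was called by limma, although all 5 differences were positive, with a median of 0.30, and 3 stood at an unadjusted p under 0.05. Rel, the subunit c-Rel, had 10.70, 10.72 and 10.55 in basal arrays, against 9.90, 10.31 and 10.37 in non-basal arrays, a difference of 0.46 (adjusted p = 0.0823). Relb, the subunit of the non-canonical route, had 8.83, 9.03 and 8.67 in basal arrays, against 8.53, 8.42 and 8.40 in non-basal arrays, a difference of 0.39 (adjusted p = 0.0586). For both genes every basal value exceeded every non-basal value, but the margin was small beside the spread of the basal arrays for Relb and of the non-basal arrays for Rel. Rela, the transactivating subunit of the canonical dimer, had 12.57, 12.55 and 12.35 in basal arrays, against 12.28, 12.26 and 12.29 in non-basal arrays, a difference of 0.21 (adjusted p = 0.138). Nfkb1 had 11.93, 11.96 and 11.72 in basal arrays, against 11.48, 11.68 and 11.75 in non-basal arrays, a difference of 0.24 (adjusted p = 0.198). Both Nfkb1 and Nfkb2 encode precursors that are cut to give DNA-binding subunits, and in both genes basal replicate 3 lay within the non-basal range. Nfkb2 had 10.40, 10.43 and 10.02 in basal arrays, against 9.84, 10.10 and 10.02 in non-basal arrays, a difference of 0.30 (adjusted p = 0.210).

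Of the 6 IκB-type genes 0 were called and 2 stood at an unadjusted p under 0.05, with differences of 0.01 to 0.44. Nfkbia, the main inhibitor and a target of NF-κB itself, had 12.65, 12.67 and 12.60 in basal arrays, against 12.41, 12.72 and 12.66 in non-basal arrays. The fractions overlapped, and the difference of 0.04 had an interval of -0.19 to 0.28 (adjusted p = 0.808). Nfkbiz, a nuclear IκB protein, had 10.24, 10.24 and 10.29 in basal arrays, against 9.79, 10.43 and 10.26 in non-basal arrays. Basal arrays fell inside the wider non-basal range, at a difference of 0.10 (adjusted p = 0.726). Differences of 0.44 and 0.39 were found for Nfkbid, another nuclear IκB gene (unadjusted p = 0.0120, adjusted p = 0.0690), and Nfkbib, a cytoplasmic inhibitor (unadjusted p = 0.0282, adjusted p = 0.118). For both, all basal values lay above all non-basal values. Nfkbie and Nfkbil1 differed by 0.14 and 0.01.

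**Figure D3:**
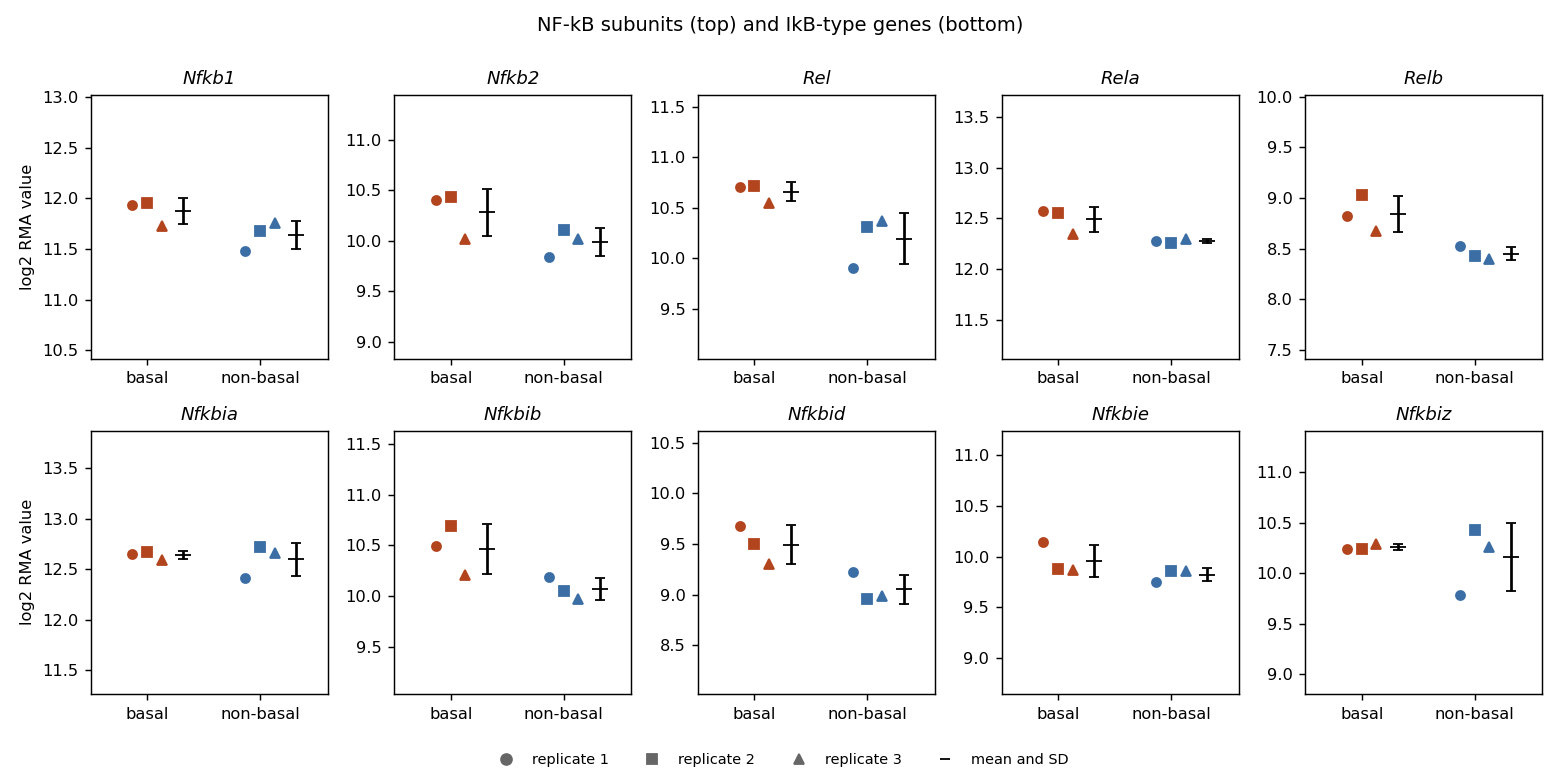
Log2 RMA values of the 5 NF-κB subunit genes and of 5 IκB-type genes on each array, basal left and non-basal right, with the mean and SD of each fraction (n = 3); every panel spans the same number of log2 units. Basal replicate 3 (triangle) is the lowest basal array of all 5 subunit genes, and Nfkbia values lie between 12.41 and 12.72 in both fractions.

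Promoter sequences were read for the genes of the loop in which NF-κB acts on its own subunit and inhibitor genes. RefSeq (GRCr8) gave a promoter of 300 bases, from 250 before to 50 after the gene's start, for 36 of the 46 genes. A form of the κB site, GGG followed by any 2 bases and TTTCC, was searched on both strands. It was found in 5 of these 36 genes (13.9%), and in 1.62% of the 27457 genes with a promoter in the same table. The 5 genes were Nfkb1, Nfkb2, Rel, Nfkbia and Nfkbiz, and none of them was called between the fractions. Capitals mark the matching letters, on either strand, in the promoters shown here because they carry them.
Nfkb1: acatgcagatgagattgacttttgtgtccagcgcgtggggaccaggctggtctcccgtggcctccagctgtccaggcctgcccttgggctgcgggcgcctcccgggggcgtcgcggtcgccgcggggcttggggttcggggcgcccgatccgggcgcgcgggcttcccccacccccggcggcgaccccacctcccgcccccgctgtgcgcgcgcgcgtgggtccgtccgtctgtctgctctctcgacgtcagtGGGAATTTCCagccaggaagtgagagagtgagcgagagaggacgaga
Nfkb2: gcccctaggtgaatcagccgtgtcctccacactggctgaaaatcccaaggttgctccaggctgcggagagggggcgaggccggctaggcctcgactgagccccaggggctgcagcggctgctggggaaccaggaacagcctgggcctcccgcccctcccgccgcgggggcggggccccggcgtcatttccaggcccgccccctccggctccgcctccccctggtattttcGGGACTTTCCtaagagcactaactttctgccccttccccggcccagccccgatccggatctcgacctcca
Rel: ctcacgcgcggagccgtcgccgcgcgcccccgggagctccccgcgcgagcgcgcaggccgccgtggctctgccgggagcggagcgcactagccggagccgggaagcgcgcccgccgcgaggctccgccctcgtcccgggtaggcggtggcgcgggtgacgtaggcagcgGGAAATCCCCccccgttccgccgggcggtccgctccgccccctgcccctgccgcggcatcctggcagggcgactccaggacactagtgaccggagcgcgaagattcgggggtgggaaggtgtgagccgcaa
Nfkbia: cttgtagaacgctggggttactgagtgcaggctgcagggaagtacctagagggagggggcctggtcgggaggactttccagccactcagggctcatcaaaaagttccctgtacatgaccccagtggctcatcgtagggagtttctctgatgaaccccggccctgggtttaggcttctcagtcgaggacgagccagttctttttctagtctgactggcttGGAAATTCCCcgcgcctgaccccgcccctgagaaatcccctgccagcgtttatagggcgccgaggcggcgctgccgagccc
Nfkbiz: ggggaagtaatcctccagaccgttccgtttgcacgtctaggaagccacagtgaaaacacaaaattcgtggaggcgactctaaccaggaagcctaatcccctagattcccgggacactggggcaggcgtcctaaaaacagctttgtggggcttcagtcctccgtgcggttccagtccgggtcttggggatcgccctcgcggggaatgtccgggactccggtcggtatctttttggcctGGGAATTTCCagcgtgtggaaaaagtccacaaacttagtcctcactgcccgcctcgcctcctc
The promoters lie at chr2:226805413-226805712 (minus strand), chr1:255108124-255108423 (plus strand), chr14:101921889-101922188 (minus strand), chr6:78597023-78597322 (minus strand) and chr11:58251471-58251770 (plus strand) of GRCr8, in the order printed. The matches begin 20 bases before the start of Nfkb2, 13 before that of Nfkbiz, 31 before that of Nfkbia and 81 before that of Rel, and in Nfkb1 it begins 3 bases after the start. In Rel and Nfkbia the match reads on the strand opposite to the gene. A match is a description of the letters and was not tested for binding.

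Of the called genes, Tlr2 has a promoter with a looser form of these letters, GGG, any 2 bases, TT, any base and CC, which stands in 6 of the 36 genes (16.7%) and in 5.35% of all genes and includes every match to the first form. Its promoter is shown because Tlr2 is the 1 called gene with such a match among the 4 called genes that have a promoter in the table, which reads the same on both strands and begins 205 bases before the start. It lies at chr2:171504508-171504807 (minus strand).
Tlr2: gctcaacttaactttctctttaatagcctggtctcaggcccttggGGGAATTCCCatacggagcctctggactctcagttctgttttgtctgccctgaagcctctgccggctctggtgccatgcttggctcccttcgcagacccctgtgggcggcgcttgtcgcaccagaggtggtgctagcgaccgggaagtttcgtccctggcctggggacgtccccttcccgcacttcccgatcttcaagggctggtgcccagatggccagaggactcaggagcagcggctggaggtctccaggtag
Tlr2 was lower in the basal fraction while the 5 genes above were not called, so genes with these letters did not share a call. The letters were chosen with the values known, and other forms of the κB site were looked at.

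Other genes of the same routes were taken from 3 lists of negative regulators and effectors, relay proteins, and inflammasome and NOD partners. Among 29 measured negative regulators and effectors of NF-κB, 3 were higher, 7 were lower and 19 were not called in the basal fraction (34.5% called, beside 14.9% of all genes). The cytokine gene Il6 averaged 8.38 ± 0.425 in basal and 11.20 ± 0.310 in non-basal arrays (SD, n = 3 each), a 7.05-fold lower level (-2.82 ± 0.253 SE, adjusted p = 0.00266). The chemokine gene Ccl2 averaged 10.11 ± 0.286 in basal and 12.38 ± 0.242 in non-basal arrays, 4.83-fold lower (-2.27 ± 0.184, adjusted p = 0.00232). Fibroblasts are among the known sources of both cytokines, and fibroblast markers were lower in the same arrays: the log2 of their summed level was 10.98 to 13.11 in basal and 15.16 to 16.00 in non-basal arrays, with 10 of 10 markers lower. Whether this plays a part in the lower Il6 and Ccl2 was not tested. The prostaglandin synthase gene Ptgs2, the mitochondrial superoxide dismutase gene Sod2 and Bcl3, an IκB-related coactivator, were lower by -0.98, -0.79 and -1.11. Birc3, an inducible ubiquitin ligase of the cIAP family, was higher, with a difference of 0.60 (adjusted p = 0.00521). Calls for Il6, Ccl2, Ptgs2 and Birc3 held in 6 of 6 fits with an array left out, those of Sod2 in 5 and of Bcl3 in 3, and both were lost without non-basal replicate 3 (adjusted p = 0.0557 and 0.0588). The other 4 called genes, named after their values were seen, were Zc3h12a and Ccl20, higher by 0.97 and 1.17, and Csf1 and Vcam1, lower at -0.82 and -0.91, and these calls held in 2, 1, 1 and 1 of the 6 fits.

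Among 38 relay genes, which encode adaptors, kinases and transcription factors downstream of the receptors, 5 were higher, 1 was lower and 32 were not called. The share called, 15.8%, was close to the 14.9% of all genes, so single genes are described. Tank, a scaffold of the kinases TBK1 and IKKε, averaged 9.09 ± 0.335 in basal and 7.45 ± 0.0926 in non-basal arrays, 3.13-fold higher (1.64 ± 0.172 SE, adjusted p = 0.00361). Ikbke, which encodes IKKε, averaged 9.10 ± 0.174 in basal and 7.49 ± 0.186 in non-basal arrays, 3.05-fold higher (1.61 ± 0.132, adjusted p = 0.00233). Azi2, a second adaptor of these kinases, was higher by 0.67 (adjusted p = 0.0256), whereas Tbk1, looked up after these values were seen, differed by 0.49 and was not called (adjusted p = 0.0517). Map3k7, which encodes the kinase TAK1, and Bcl10, an adaptor of the CARD-containing complexes, were higher by 0.87 and 0.89. Peli2, a ubiquitin ligase that acts on IRAK proteins, was lower at -0.59. For Tank, Ikbke and Peli2 the call held in 6 of 6 fits with an array left out, for Map3k7 in 4 and for Azi2 and Bcl10 in 2 each. With adjusted p of 0.104 and 0.0872, Azi2 and Bcl10 were farthest from the threshold without basal replicate 2, and Map3k7 without non-basal replicate 3 (0.0599).

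Of 21 inflammasome and NOD partners 1 was higher, 2 were lower and 18 were not called (3 of 21 in all). This share was close to the 14.9% of all genes called, so single genes are described here too. Casp4, the caspase that senses cytosolic lipopolysaccharide, averaged 10.03 ± 0.119 in basal and 8.83 ± 0.212 in non-basal arrays, 2.30-fold higher (1.203 ± 0.127 SE, adjusted p = 0.00361). Birc2, a ubiquitin ligase of the cIAP family that acts on RIPK2, averaged 8.85 ± 0.116 in basal and 9.93 ± 0.158 in non-basal arrays, 2.12-fold lower (-1.08 ± 0.107, adjusted p = 0.00314). Both calls held in 6 of 6 fits with an array left out. Nek7, a kinase that NLRP3 needs in the mouse, was also lower (-0.36, adjusted p = 0.0316), but 4 of these 6 fits lost it, and omitting non-basal replicate 3 gave 0.114 as the adjusted p. With 1 array left out, 9 to 23 genes of the 3 lists together were called, in place of 19. The fewest were called without non-basal replicate 3, where 5.88% of all genes were called. The most were called without basal replicate 3 (19.5% of all genes) or non-basal replicate 1 (16.4%).

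In 25 of the 46 genes (54.3%, beside 32.3% of all genes) non-basal replicate 1 was the lowest of the non-basal arrays. Cd14, Tlr1, Tlr7, Tlr13 and Nlrp3 were among the 25, and so were Pycard, Rel, Nfkb1, Nfkb2, Nfkbia and Nfkbiz. For Tlr2, Tlr3, Tlr5, Lbp, Myd88 and Nlrp1a, among others, it was instead the highest non-basal array. The same array carried the lowest macrophage level of the non-basal fraction. There the mean deviation of the macrophage markers from their overall means was -0.397, against 0.756 and 0.651 in the other non-basal arrays. Non-basal replicate 1 was also the lowest non-basal array for lymphocyte (0.23, against 0.985 and 0.882) and fibroblast markers (1.3, against 2.28 and 2.14). The same held for neutrophil and mast cell, smooth muscle and basal epithelial markers. For endothelial, principal, and narrow and clear cell markers it was the highest non-basal array. The part of any of these cell types in the values was not tested. Without non-basal replicate 1 there were 6 called genes (13.0%, beside 16.4% of all genes). Cd14 was then lower by -0.93 (adjusted p = 0.0361), Nlrp3 by -0.67 (adjusted p = 0.0238) and Tlr13 by -0.82 (adjusted p = 0.0488), while Tlr2, Tlr6, Lbp and Myd88 no longer passed. Their differences in that fit were -0.50 for Tlr2, -0.67 for Tlr6, -0.95 for Lbp and -0.58 for Myd88, beside -0.59, -0.59, -1.09 and -0.61 with all arrays. In the same fit 14 of the 21 macrophage markers were lower, against 3 with all arrays. Non-basal replicate 1 was the lowest non-basal array of Cd14, Nlrp3 and Tlr13, so leaving it out makes their differences more negative by construction. Among defining leukocyte genes, Ptprc averaged 6.68 ± 0.191 in basal and 8.65 ± 0.745 in non-basal arrays, and limma called it lower with all arrays (-1.98, adjusted p = 0.0189). Csf1r averaged 8.34 ± 0.215 and 9.05 ± 1.05, Cd68 8.92 ± 0.125 and 8.996 ± 0.417, and Cd3e 5.51 ± 0.00933 and 6.04 ± 0.460. None of these was called, and Cd3e lay under the array medians in both fractions, so its values alone cannot decide whether T cells were present. Of the 16 lymphocyte markers 8 were lower and 8 were not called. Cd8a, Lck and Prf1, named after their values were seen, were among those lower. They averaged 7.84, 7.74 and 9.57 in non-basal arrays.

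Basal replicate 3 was the other array that stood apart. It carried the most fibroblast signal of the basal arrays, with a mean marker deviation of -0.876, against -2.69 and -2.16, and the least basal epithelial signal, at 1.04, below both other basal arrays. It was also the highest basal array for principal cell markers (0.362, against -0.611 and -0.225). The same held for smooth muscle, endothelial, lymphocyte, neutrophil and mast cell, and narrow and clear cell markers. For macrophage markers basal replicate 3 was the lowest basal array (-0.516, against -0.427 and -0.0674). It also had the lowest basal value of all 5 NF-κB subunit genes. Without it 12 of the 46 genes were called (26.1%, beside 19.5% of all genes), 8 higher and 4 lower. Relb was then higher by 0.48 (adjusted p = 0.0267), Rela by 0.28 (adjusted p = 0.0279) and Nfkb2 by 0.43 (adjusted p = 0.0428), and Nfkbib and Nfkbid were higher by 0.52 and 0.54. Rel and Nfkb1 were not called in that fit. Basal replicate 3 held the lowest basal value of all 5 subunit genes and of Nfkbib and Nfkbid. Leaving it out therefore raises their differences by construction, and the added calls are no separate result. Omitting this array along with non-basal replicate 1 gave 13 called genes (28.3%, beside 25.4% of all genes), among them Rel, higher by 0.37 (adjusted p = 0.0205). No other pair of arrays was left out together. With any other array left out, 2 or 3 of the 46 genes were called: 3 without basal replicate 1 (6.56% of all genes), 3 without basal replicate 2 (5.98%), 3 without non-basal replicate 2 (6.94%), and with non-basal replicate 3 omitted 2 (5.88%). Ripk2 and Irak2 were called in all 7 of these fits.

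**Figure D4:**
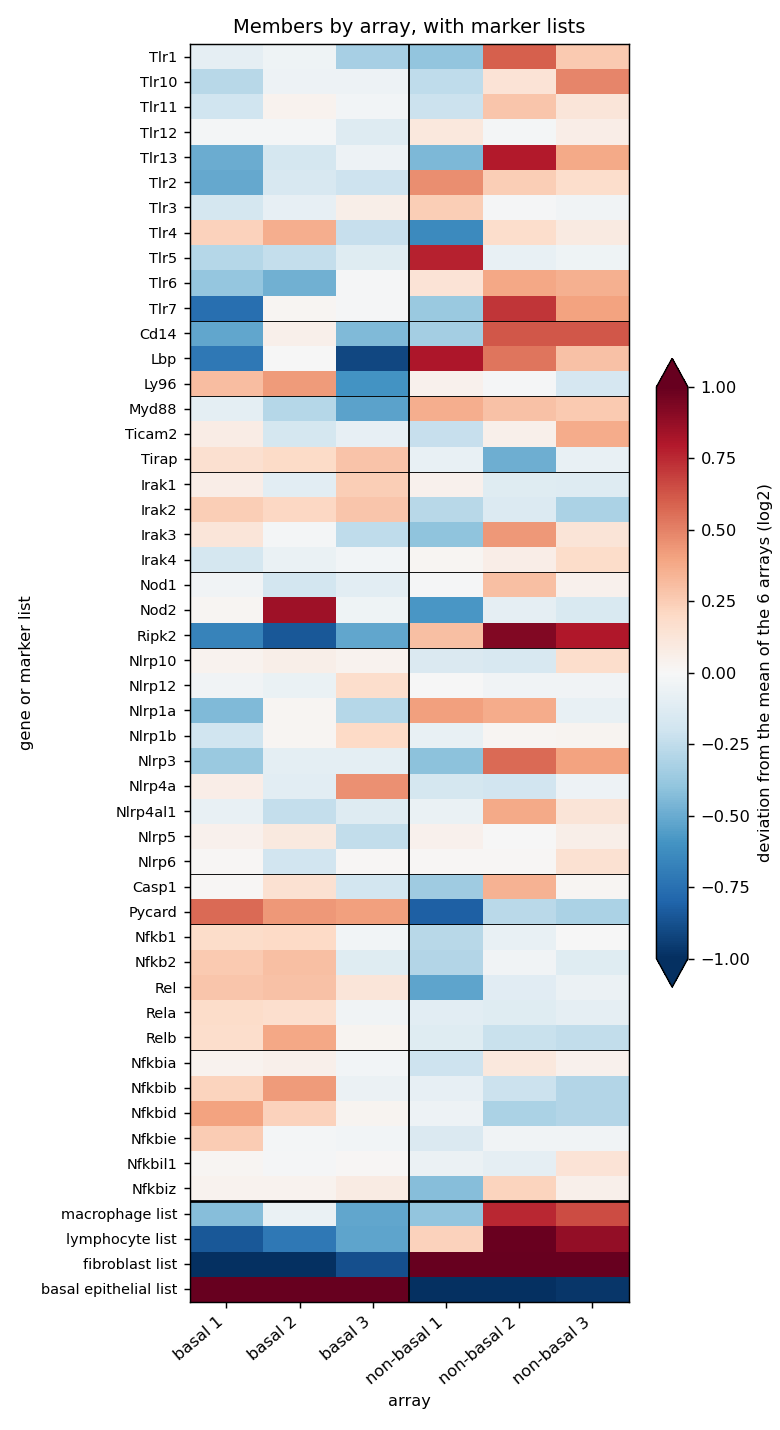
Deviation of each of the 46 genes from its mean over the 6 arrays, in log2 units, with basal arrays left and non-basal arrays right, and below the thick line the mean deviation of 4 marker lists; the colour scale ends at 1, which the fibroblast and basal epithelial lists exceed. Non-basal replicate 1 is paler or bluer than the other non-basal arrays for Cd14, Tlr7, Tlr13 and Nlrp3 and for the macrophage and lymphocyte lists. For Tlr2, Tlr5 and Lbp, among others, its value is the highest of the non-basal arrays.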

How the data were processed

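Deposited values are on the log2 scale; the submitters' processing notes name RMA and Affymetrix Expression Console. Their version and the probe set library and genome build are not given in the sources used here. RMA makes array distributions alike and removes any shift common to most genes. Of 36685 probe sets 18511 had 1 gene symbol; the brightest stood for its gene, giving 18166 genes. All 46 genes described had 1 probe set. No filter on dim genes was applied. Genes and lists were chosen with earlier results of these data known.

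Groups and replicate numbers came from the sample titles. Basal minus non-basal was fitted in limma 3.58.1 (R 4.3.3; lmFit, eBayes) without a block, with Benjamini-Hochberg adjustment over all genes. The fit was tested on simulated data. Because the arrays may not be separate animals, p-values measure only the spread between them, which may be technical, and their number limits the precision. All array values are given for called genes and for 18 genes fixed by role (other genes shown in full were added with values known), and from each list up to 6 called genes by smallest p. Alternatives were a replicate block, quantile normalization, median centring, filters at a mean of 5 or 7, trended robust variances, weights per array, averaged probe sets, other thresholds and omitted arrays.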

Additional observations from a re-analysis of the deposited data

How the results depend on the processing

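Quantile normalization, median centring, an intensity trend with robust spread, the mean of all probe sets and a filter at a mean of 5 gave the same counts of 2 higher and 5 lower genes. The number higher was 4 with a filter at 7 (13.8% of those tested, beside 14.5% of all genes) and 7 with array weights (15.2% beside 15.8%). It was 6 at an adjusted p under 0.1 (13.0% beside 11.5%) and 1 at an adjusted p under 0.01 (2.17% beside 2.7%). Without basal replicate 3 and non-basal replicate 1 together it was 9 (19.6% beside 13.8%). With 1 array left out the number higher ranged from 1 (2.17% beside 2.8% to 3.08%) to 8, without basal replicate 3 (17.4% beside 11.4%). In those fits the number lower ranged from 1 (2.17% beside 2.98% to 3.51%) to 4 (8.7% beside 8.12% to 8.85%). The number lower was 4 with a filter at 7, which leaves out Tlr6 (13.8% of those tested, beside 12.7% of all genes). It was 1 at an adjusted p under 0.01 (2.17% beside 3.06%). Same-numbered arrays correlated at 0.0312, 0.0383 and 0.0278 in their deviations from the fraction means, and other pairs at -0.0679 to 0.0270. Values this small, from 3 arrays per fraction, cannot decide whether the numbers pair the arrays. With the replicate block 2 genes were higher and 2 lower (8.7% called beside 11.1%). Partner genes called numbered 37 with array weights (28.6% of all genes called) and 32 without the same 2 arrays together (25.4%). They numbered 11 at an adjusted p under 0.01 (2.7% of all genes higher and 3.06% lower). With 1 array left out they numbered 9 to 23 (5.88% to 19.5% of all genes). For the called genes and those fixed by role, 21 together, and 17 alternatives, 354 values were obtained, and 11 of them had the opposite sign, each of a gene not called with all arrays. Many of the 354 could not turn. Other thresholds, the filters, the trended robust variances, the replicate block and averaged probe sets leave the difference of these genes unchanged by construction. Rel and Tirap, also shown in full, stayed positive in 15 of 15 other fits, which include those where the difference could not change. With array weights Nfkbia was -0.0043 and Nfkbiz -0.0258, and without the same 2 arrays together they were -0.0304 and -0.10. With 1 array left out Nfkbia ranged from -0.0525 to 0.10, Nfkbiz from -0.087 to 0.24, Casp1 from -0.19 to 0.16, Ly96 from -0.10 to 0.41 and Tlr4 from -0.014 to 0.42. The cause of these changes was not tested. Signal over background was not known, since only summarised values were used, and 17 of the 46 genes lay under a mean of 7 in both fractions.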
